A study of Mus musculus with 2 samples.

Results

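Fatty acid synthesis was represented by 10 genes, Thrsp, Me1, Fasn, Scd1, Acaca, Acacb, Acly, Elovl6, Srebf1 and Mlxipl, chosen by name among 21938 protein-coding genes of the mouse. These genes, the motifs and the wider gene lists were chosen with earlier results of these data known. Shares set beside all genes or all sites are therefore descriptions of a chosen list. Around them lay 39 of the 5107 sites occupied by the thyroid hormone receptor TRα1 in brown adipose tissue, counted as TR binding sites (TRBS) with the summit within 100 kb of the transcription start site (TSS) of a member. Of these, 22 lay within 30 kb of the TSS and 17 lay farther out. The summit is the position with the most precipitated fragments, and a single TSS was used per gene, the start of the gene in the GRCm38 (mm10) annotation.

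The tissue was taken from male mice of the C57BL/6J strain, 8 to 12 weeks of age, with a GS-tagged TRα1 expressed in brown adipocytes only. All mice were first made hypothyroid by food with propylthiouracil, which blocks thyroid hormone synthesis, for 2 weeks, and then received injected thyroid hormone for 24 h. Chromatin immunoprecipitation and sequencing gave 1 ChIP library, and the same chromatin without precipitation gave 1 input library. Both came with fixation steps of 25 and 20 min. The driver of the tagged receptor and the number of mice pooled were not given in the sources used here, and tissue without hormone was not analysed here. With 1 ChIP library there was no replicate and no test, so every difference below is a description of this library. The list carries no expression values. At Ucp1, the uncoupling protein that defines brown adipocytes, it held 5 TRBS within 30 kb, the strongest with 362 ChIP fragments.

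De novo lipogenesis turns cytosolic acetyl-CoA into long-chain fatty acids. ATP-citrate lyase supplies acetyl-CoA, acetyl-CoA carboxylase makes malonyl-CoA from it, and fatty acid synthase builds palmitate with NADPH, part of which malic enzyme provides. Elongases and desaturases then lengthen and unsaturate the product. The transcription factors SREBP-1 and ChREBP drive the genes of the pathway in response to insulin and glucose, and thyroid hormone (T3) is a classic inducer of the pathway in liver. In brown fat, T3 and cold promote fatty acid synthesis and fatty acid oxidation side by side. TR binds DNA mostly as a heterodimer with RXR on the DR4 element, a direct repeat of AGGTCA half-sites with a spacer of 4 bases.

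The DR4 was searched on both strands of each whole TRBS, and up to 2 of its 12 half-site bases were allowed to differ. It was found in 10 of the 39 TRBS, once in each. The matches are shown because the DR4 is an element that TR is known to bind. Whether TR binds through these 10 stretches was not tested. Each is written 5′ to 3′ on its own strand with 6 bases on either side, and capitals mark the half-sites. Positions are GRCm38, from the reference sequence.
Thrsp, chr7:97423934-97423949, minus strand: ggggtgAGGTCAggttAGTTCActgcta
Fasn, chr11:120830669-120830684, plus strand: cagagcAGGTCAaggcTGGTGAgaggct
Fasn, chr11:120873228-120873243, minus strand: agtcccAGGCCAggccAGGCCActgtag
Scd1, chr19:44422232-44422247, minus strand: ttagacGGGTAAacagAGGTCAaaacgg
Scd1, chr19:44448102-44448117, plus strand: cttgttAGGGCAgctaAGGTCTggcttc
Acaca, chr11:84078804-84078819, plus strand: gtaaagAGGTGAgaccAGGACAcgggac
Acacb, chr5:114155976-114155991, plus strand: tcagctAGGTCAggtcAGGGGAgagcca
Elovl6, chr3:129583578-129583593, plus strand: aactttATTTCAgcttAGGTCActgtat
Elovl6, chr3:129592011-129592026, plus strand: tgccagAGGTCAtttgGGTTCAcccact
Mlxipl, chr5:135009838-135009853, plus strand: gatctgAGGTCAgccaAGGGCActggga
The elements of Thrsp and Mlxipl carried a single mismatch, G13T and T14G, with the DR4 base first and positions counted from 1 at the 5′ end of the element. The other 8 carried 2 mismatches, and none of the 10 was a perfect repeat.

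Other TRBS held no such element, among them the strongest within 30 kb of several members. The summits of 4 TRBS without a DR4 are shown with 75 bases on either side, on the plus strand of GRCm38, and capitals mark every stretch within 1 mismatch of AGGTCA on either strand. The first lay upstream of Thrsp and held the most fragments of all 39 TRBS, the next pair were the strongest within 30 kb of Scd1 and Me1, and the last was the TRBS nearest to the gene start of Acaca, inside the gene, although not the Acaca site with the most fragments.
Thrsp, chr7:97420503-97420653: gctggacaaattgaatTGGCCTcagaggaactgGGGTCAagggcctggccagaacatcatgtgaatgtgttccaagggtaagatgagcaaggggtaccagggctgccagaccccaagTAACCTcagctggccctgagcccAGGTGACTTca
Scd1, chr19:44416317-44416467: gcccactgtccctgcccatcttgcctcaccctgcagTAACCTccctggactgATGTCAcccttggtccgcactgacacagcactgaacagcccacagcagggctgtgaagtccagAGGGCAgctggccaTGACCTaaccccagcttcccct
Me1, chr9:86695984-86696134: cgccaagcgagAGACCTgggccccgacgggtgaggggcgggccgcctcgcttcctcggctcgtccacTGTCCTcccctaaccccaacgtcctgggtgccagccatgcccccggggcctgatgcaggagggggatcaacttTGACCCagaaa
Acaca, chr11:84179613-84179763: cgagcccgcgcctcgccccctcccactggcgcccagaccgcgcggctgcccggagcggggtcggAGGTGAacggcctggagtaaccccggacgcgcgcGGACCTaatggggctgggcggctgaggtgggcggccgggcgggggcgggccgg
The Thrsp window held 5 such half-sites, the Scd1 window 4, the Me1 window 3 and the Acaca window 2.

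Within 30 kb of the TSS, 8 of the 10 members had at least 1 TRBS, against 16.7% of all protein-coding genes. Acaca and Elovl6 were the members without one. More than 1 TRBS was found at 5 members (Thrsp, Fasn, Scd1, Acacb and Mlxipl), against 4.55% of all protein-coding genes, and within 100 kb all 10 members had a TRBS, against 38.3%. A summit within 1 kb of the TSS was found at 4 members (Me1, Fasn, Acacb and Mlxipl), against 3.02%. No TRBS was shared between members.

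Of the 22 TRBS within 30 kb, 14 lay upstream of the TSS and 8 downstream. The member was the nearest protein-coding gene for 20 of them. By annotation, 4 lay in a promoter, 7 in an intron and 11 between genes, where a promoter ran from 1000 bp before to 100 bp after a TSS. The body of the member itself held 5 summits, and 2 more lay in the body of another gene. Another summit lay no more than 10 kb away at 16 of the 22, against 29.7% of all TRBS and 32.7% of the 2913 TRBS within 30 kb of any protein-coding TSS. Members with several sites bring both ends of each such pair into this count.

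**Figure D1:**
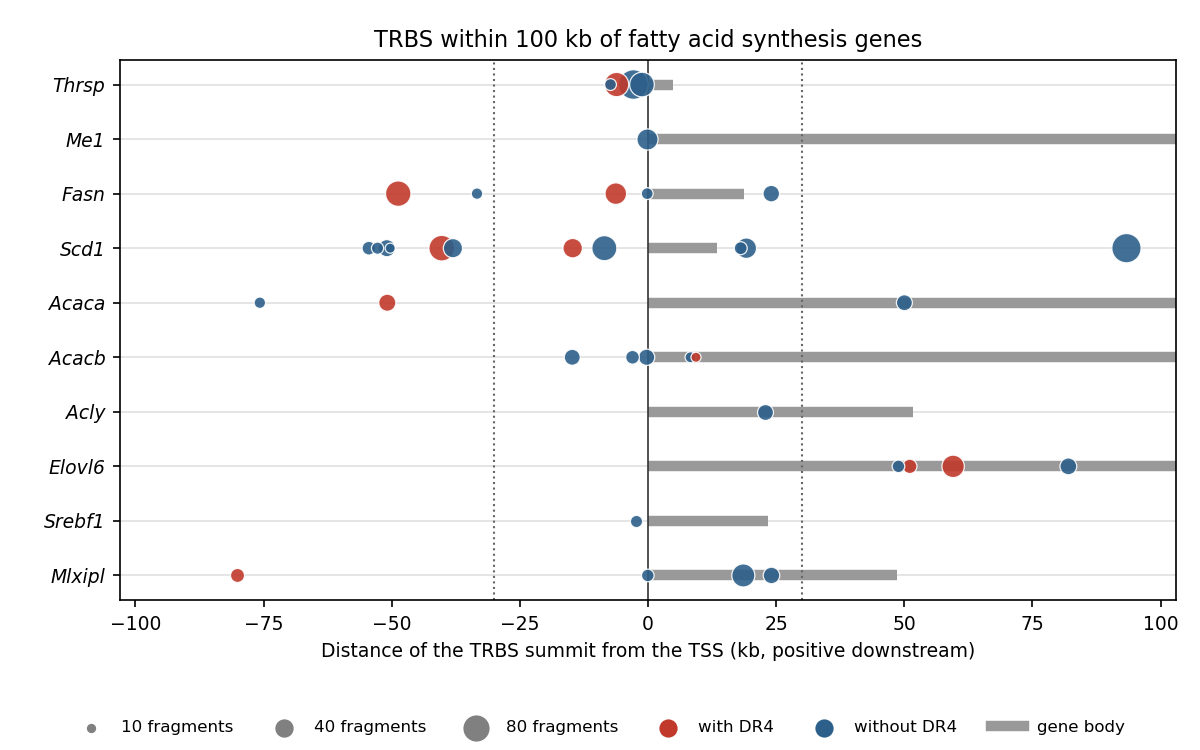
Position of the 39 TRBS around the 10 genes. The x axis gives the distance of the summit from the TSS in kb (positive downstream), the dotted lines mark 30 kb on either side, and circles grow with the ChIP fragments at the summit, red with and blue without a DR4. The 4 TRBS of Thrsp all sit just upstream of the TSS, while those of Elovl6 all lie inside the gene, beyond 30 kb.

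The strength of a TRBS was read as the number of ChIP fragments at its summit, a whole number recovered from the deposited fold and p-value, and its exact 95% Poisson interval covers counting error only, because fragments were not marked with molecular identifiers and some may be copies of one molecule. The 22 TRBS within 30 kb had from 7 to 88 fragments, with a median of 24.5 against 17 over all 5107 TRBS. The number exceeded that median of all TRBS at 14 of the 22, and 9 were at or above the upper quartile of all TRBS, 27 fragments. The deposited fold of ChIP over local background ranged from 4.18 to 53.8, with a median of 14.4 against 9.83 over all TRBS. The local input background at these summits ranged from 0.430 to 1.83 fragments on the scale of the ChIP library, with a median of 0.676 against 0.672 over all TRBS.

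**Figure D2:**
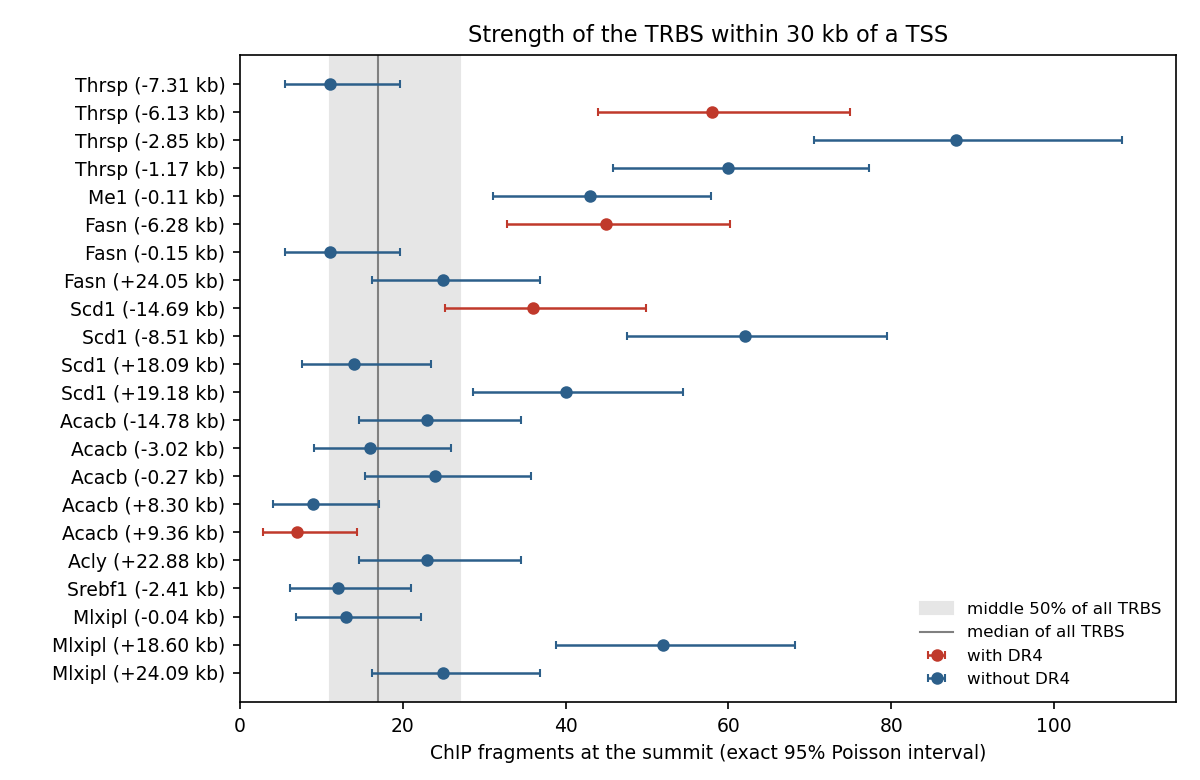
ChIP fragments at the summit of each of the 22 TRBS within 30 kb of a member (x axis), with exact 95% Poisson intervals. The y axis gives the gene and the distance from the TSS, the grey band spans the middle of all 5107 TRBS (11 to 27 fragments) and the line their median of 17; 3 of the 4 Thrsp sites lie far to the right of the band.

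Thrsp (ENSMUSG00000035686, chr7:97412938-97417730, minus strand) encodes the Spot 14 protein, quickly induced by T3 in liver, which acts with its paralog MID1IP1 on acetyl-CoA carboxylase and fatty acid synthesis. It had 4 TRBS, all upstream and all nearer to Thrsp than to any other protein-coding gene. The innermost summit, 1174 bp upstream, had 60 fragments (45.8 to 77.2) with a fold of 27.5. The summit 2848 bp upstream (chr7:97420380-97421229) had 88 fragments (70.6 to 108) and a fold of 53.8, and it ranked 80 by score among all TRBS. The summit 6129 bp upstream (chr7:97423433-97424161) had 58 fragments (44.0 to 75.0), with a fold of 40.1. The outermost, 7314 bp upstream, had only 11 fragments (5.49 to 19.7), with a fold of 4.25, and its background was the highest of the 22, 1.83 fragments. The 3 inner sites thus stood above the upper quartile of all TRBS with their whole intervals, and the outermost did not. The counting intervals of the 88-fragment site and of its neighbours at 60 and 58 fragments overlapped, so their order was not resolved at this depth. The DR4 with a single mismatch shown above lay 82 bp from the summit at 6129 bp, and the strongest of the 4 held no element closer than 3 mismatches.

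Me1 (ENSMUSG00000032418, chr9:86581371-86695953, minus strand) encodes the cytosolic malic enzyme, which makes NADPH. It had 1 TRBS, in its promoter, with the summit 106 bp upstream of the TSS (chr9:86695860-86696391). This site had 43 fragments (31.1 to 57.9), with a fold of 27.4 and a background of 0.609. The next summit on the chromosome was 326050 bp away, so Me1 was the most isolated of the members. The promoter window shown above held an SP/KLF motif (GGGCGG) within 100 bp of the summit and no DR4 in the whole TRBS. At the summit lay a pair of half-sites in DR4 spacing with 3 mismatches, a degree of match that 72.5% of all TRBS reached.

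Fasn (ENSMUSG00000025153, chr11:120805846-120824547, minus strand) encodes fatty acid synthase. Its promoter TRBS, 152 bp upstream, was weak, with 11 fragments (5.49 to 19.7) and a fold of 7.46, and its counting interval did not overlap that of the 43-fragment site in the Me1 promoter. The strongest of its 3 TRBS within 30 kb lay 6281 bp upstream, in intron 18 of the neighbouring Ccdc57 (chr11:120830540-120831259), with 45 fragments (32.8 to 60.2) and a fold of 24.0. It held a DR4 with 2 mismatches 152 bp from the summit. The other site, 24051 bp downstream and 5350 bp past the end of Fasn, had 25 fragments (16.2 to 36.9), and its nearest gene was Dus1l, whose TSS lay 4093 bp away. Farther out in Ccdc57, in intron 15 and 48724 bp upstream of Fasn (chr11:120872950-120873657), lay a TRBS with 64 fragments (49.3 to 81.7), a fold of 25.0 and a DR4 36 bp from the summit. The site with the most fragments around Fasn was thus outside 30 kb, although its counting interval overlapped that of the site at 6281 bp. One more TRBS of 10 fragments lay 33358 bp upstream.

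Scd1 (ENSMUSG00000037071, chr19:44394455-44407879, minus strand) encodes a stearoyl-CoA desaturase that makes oleate. It had 4 TRBS within 30 kb and 11 within 100 kb, the most of the members. The strongest within 30 kb, 8513 bp upstream (chr19:44415984-44416839), had 62 fragments (47.5 to 79.5) and a fold of 44.1. The next upstream site, at 14690 bp, had 36 fragments (25.2 to 49.8) and held a DR4, although 330 bp from its summit. Past the 3′ end of the gene, a pair of sites at 18089 and 19180 bp downstream of the TSS had 14 and 40 fragments. None of the 4 lay in the gene body. The 7 sites beyond 30 kb had from 7 to 86 fragments.

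A group of TRBS lay 38054 to 54449 bp upstream of Scd1. Its strongest site, 40238 bp upstream (chr19:44447829-44448538), had 65 fragments (50.2 to 82.8), a fold of 34.3 and a DR4 only 8 bp from the summit. The site 38054 bp upstream was next, with 35 fragments and a fold of 24.2. For the other 4 sites of the group, with 7 to 27 fragments, the nearest gene was Wnt8b. The site with the most fragments within 100 kb of Scd1 lay 93336 bp downstream (chr19:44314314-44314980). It had 86 fragments (68.8 to 106), an interval overlapping that of the 65-fragment site, and a fold of 45.5. It is 18549 bp upstream of the TSS of the paralog Scd4 and 20869 bp downstream of the TSS of the paralog Scd2, so by distance it belongs to these desaturase genes rather than to Scd1. It held no DR4.

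Acacb (ENSMUSG00000042010, chr5:114146535-114250761, plus strand) encodes acetyl-CoA carboxylase 2, whose malonyl-CoA at the mitochondrial surface restrains fatty acid entry. With 5 TRBS within 30 kb it had the most of the members, a number reached by 0.283% of all protein-coding genes, but each was of moderate or low strength. The promoter site 267 bp upstream had 24 fragments (15.4 to 35.7), a site 3020 bp upstream had 16, and a site 14777 bp upstream, in intron 1 of Ung and 1372 bp from the Ung TSS, had 23. In intron 1 of Acacb, summits 8301 and 9363 bp downstream had 9 and 7 fragments. These intronic sites had scores of 54 and 22, below the threshold of 60 of the study's methods, which the deposited list did not apply. The outermost Thrsp site, with a score of 31, was the other of the 22 below it, so at that threshold Thrsp would keep 3 of its 4 sites and Acacb 3 of its 5. Scd1, which would keep 4, would then have the most of the members. Of the 5 Acacb sites, the site that held a DR4 was the one at 9363 bp, with a fold of 4.18 the weakest of the 22 TRBS.

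Acaca (ENSMUSG00000020532, chr11:84129672-84401651, plus strand) encodes acetyl-CoA carboxylase 1, the cytosolic enzyme that commits acetyl-CoA to fatty acid synthesis. It had no TRBS within 30 kb of the gene start. Its nearest TRBS lay inside the gene, in intron 1 at 50016 bp (chr11:84179536-84179838), with 23 fragments (14.6 to 34.5) and a fold of 13.0. The choice of TSS matters here. This summit was 143 bp upstream of the start of an annotated protein-coding transcript of Acaca (ENSMUST00000137500) and 6566 bp downstream of the start of the principal transcript (ENSMUST00000103201), which itself begins 43450 bp after the gene start. The sequence of the site was 79.9% G and C, the highest share of the 39 TRBS, and it held NF-Y (CCAAT) and SP/KLF motifs within 100 bp of the summit and no DR4. Of 2 sites upstream of the gene, the one at 50859 bp had 27 fragments (17.8 to 39.3) and a DR4 2 bp from the summit, closer than at any other TRBS of these genes. Its nearest gene was Dusp14, 9552 bp away, and its counting interval overlapped that of the site in intron 1. The other upstream site, at 75719 bp, had 10 fragments and lay in Dusp14.

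Acly (ENSMUSG00000020917, chr11:100476353-100528000, minus strand) encodes ATP-citrate lyase. Its only TRBS within 100 kb lay in intron 11, 22882 bp downstream of the TSS (chr11:100504985-100505343), with 23 fragments (14.6 to 34.5) and a fold of 15.1. It held no DR4.

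Elovl6 (ENSMUSG00000041220, chr3:129532355-129638495, plus strand) encodes the elongase that extends palmitate to stearate. All 4 of its TRBS lay in its introns, beyond 30 kb from the gene start, but the nearest, at 48861 bp, was 28836 bp downstream of the start of another annotated protein-coding transcript (ENSMUST00000198369), so the absence within 30 kb holds for the gene start and the principal transcript and not for every transcript. In intron 2, sites at 48861, 51067 and 59522 bp had 13, 18 and 49 fragments, and in intron 3 a site at 82004 bp had 26. The site at 59522 bp (chr3:129591225-129592229) had an interval of 36.2 to 64.8 fragments, a fold of 26.0 and a DR4 142 bp from the summit, and the site at 51067 bp also held a DR4. In strength the site with 49 fragments lay above the upper quartile of all TRBS with its whole interval. A member without a TRBS within 30 kb was thus not without TRBS in its body.

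Srebf1 (ENSMUSG00000020538, chr11:60199089-60222581, minus strand) encodes SREBP-1, the insulin-responsive activator of lipogenic genes. It had 1 TRBS, 2408 bp upstream of the gene start and 4385 bp upstream of its nearest protein-coding transcript start (chr11:60224871-60225213). The site had 12 fragments (6.20 to 21.0) and a fold of 6.80, the lowest of the strongest sites per member within 30 kb, and no DR4.

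Mlxipl (ENSMUSG00000005373, chr5:135089890-135138382, plus strand) encodes ChREBP, the glucose-responsive activator of the same genes. At its gene start, 41 bp upstream, lay a TRBS with 13 fragments (6.92 to 22.2) and a fold of 8.70. That start belongs to a transcript without a coding sequence. The principal transcript (ENSMUST00000005507) begins 17028 bp farther on, and the strongest TRBS, with 52 fragments (38.8 to 68.2) and a fold of 21.0, lay 1568 bp downstream of it (chr5:135108170-135109648). In intron 2, 7059 bp downstream of the same start, lay a TRBS with 25 fragments (16.2 to 36.9) and a fold of 16.2. Measured from the principal transcript, the stronger Mlxipl sites were therefore the near ones, and the weak site at the gene start was 17069 bp upstream. None of the 3 held a DR4. A TRBS 80074 bp upstream of Mlxipl, with 17 fragments, lay in the 5′ UTR of Abhd11, 664 bp from the Abhd11 TSS, and held the DR4 with a single mismatch 30 bp from its summit.

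A minority of the TRBS held a DR4. Within 30 kb, 4 of 22 TRBS held one, or 18.2% (95% Wilson interval 7.31 to 38.5), against 32.0% of all TRBS and 5.43% of 9882 flanking windows of the same width, taken 2 kb beyond the edges of TRBS. Between 30 and 100 kb the count was 6 of 17, or 35.3% (17.3 to 58.7). The interval within 30 kb includes the share of all TRBS, so a difference was not detectable with 22 sites, and with up to 3 mismatches the order turned, at 81.8% against 72.5% of all TRBS. Within 100 bp of the summit, 2 of the 22 held a DR4, or 9.09% (2.53 to 27.8), against 27.1% of all TRBS, and this interval too includes the share of all TRBS. The 4 DR4-bearing TRBS had 58, 45, 36 and 7 fragments, and the strongest sites of 7 of the 8 members with a TRBS within 30 kb had none.

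Conversely, most DR4 in these loci lay outside TRBS, and no share over all genes was computed to set beside the count. The study reports the same for DR4-like elements of the whole mouse genome, under its own definition. It is therefore not particular to these genes. In the windows of 30 kb on either side of the 10 starts, the reference sequence held 69 DR4 with at most 2 mismatches, and 4 of them lay in a TRBS. The window of Srebf1 had the most, 13, and none was in a TRBS. Of the DR4 with at most 1 mismatch, Mlxipl had 3 and Fasn 2 within 30 kb, none of them in a TRBS, while the single one near Thrsp lay in the TRBS at 6129 bp.

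Other motifs were counted within 100 bp of the summit on both strands. A match here is a run of letters, not a binding event. The E-box CACGTG, the sequence to which SREBP-1, ChREBP with its partner MLX, and USF can bind, was found at 5 of the 22 TRBS, or 22.7% (95% Wilson interval 10.1 to 43.4), against 4.44% of all TRBS. The share of all TRBS lay below this interval, which covers counting error only and was 1 of 10 looked at with no test. The 5 elements are shown on the plus strand with 10 bases on either side and the E-box in capitals, since they are the letters that these TRBS shared and the rule did not use.
Fasn, 24051 bp downstream, chr11:120800516-120800521: gagcttgcatCACGTGggcagagagg
Acacb, 14777 bp upstream, chr5:114131691-114131696: atctcactatCACGTGggtccggagg
Acacb, 8301 bp downstream, chr5:114154757-114154762: gacggcacggCACGTGtgctgcatgc
Acly, 22882 bp downstream, chr11:100505144-100505149: tactacagatCACGTGccaaaagttt
Mlxipl, 41 bp upstream, chr5:135089792-135089797: ggctgccatcCACGTGctaaggagag
They lay 22 to 76 bp from their summits. None of these 5 TRBS held a DR4, and they had 25, 23, 9, 23 and 13 fragments in that order, so the strongest sites of the set were not among them. None of the 17 TRBS beyond 30 kb had an E-box near its summit.

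The NF-Y motif CCAAT was found at 8 of the 22 TRBS (36.4%, 19.7 to 57.0), against 21.7% of all TRBS, and the SP/KLF motif GGGCGG at 5 (22.7%), against 11.3%. A single perfect half-site AGGTCA was present at 8 (36.4%), against 42.3%, and the C/EBP motif TTNCNNAA at 8 (36.4%), against 39.9%. A direct repeat of the half-site with a spacer of 1 base (DR1, at most 2 mismatches), bound by PPARγ with RXR, was present at 1 (4.55%), against 8.64%. The sterol element TCACNCCAC, bound by SREBP, was found at none of the 22, which with the Wilson interval allows up to 14.9%, against 1.23% of all TRBS. The EBF and NF1 motifs, searched as TCCC and GGGA with 2 free bases between and as TTGGC and GCCAA with 5, were also found at none, against 2.55% and 0.0587%. For each of the 8 motifs of this paragraph, the Wilson interval in the 22 TRBS included the share of all TRBS.

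**Figure D3:**
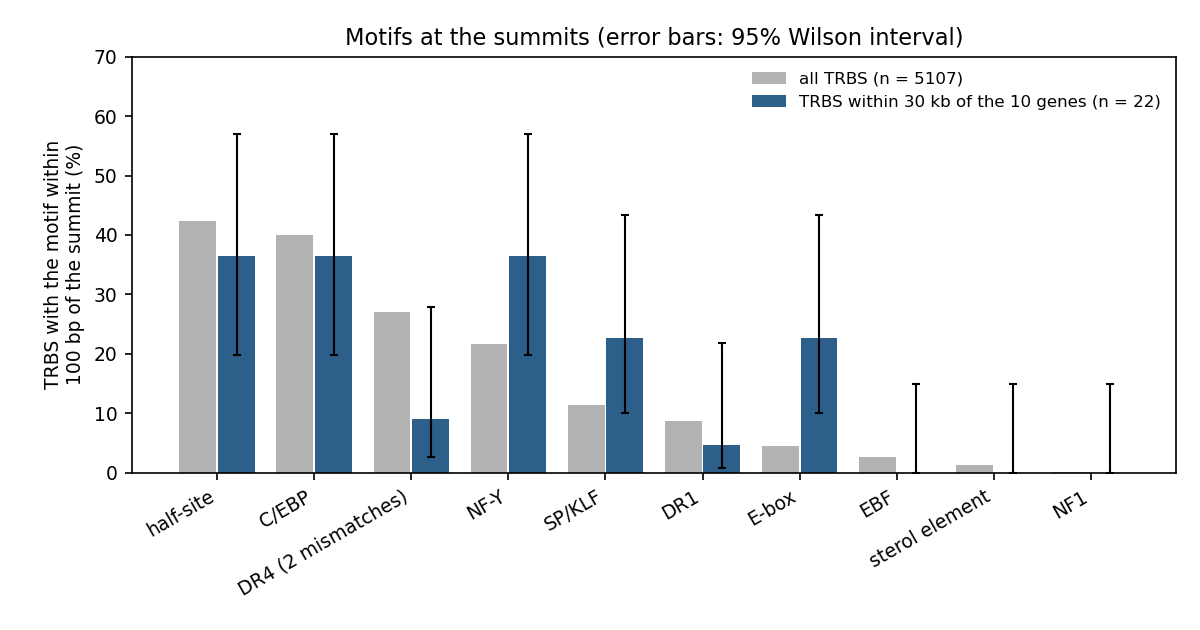
Share of TRBS with each motif within 100 bp of the summit (y axis, percent) for all 5107 TRBS (grey) and for the 22 within 30 kb of a member (blue, with 95% Wilson intervals). The E-box bar of the 22 stands at 22.7% over 4.44%, and the DR4 bar at 9.09% under 27.1%.

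The wider pathway was read from 50 other genes of fatty acid synthesis. Of these, 18 had a TRBS within 30 kb (36.0%), against 16.7% of all protein-coding genes, 8 of the 50 had more than 1, against 4.55%, and 34 had one within 100 kb (68.0%), against 38.3%. NADPH supply was the group with a TRBS at each gene, 5 of 5. Tkt and Taldo1, enzymes of the pentose phosphate pathway, had strongest sites of 44 and 40 fragments, the cytosolic isocitrate dehydrogenase Idh1 had 35 with a DR4, and G6pdx and Pgd, the NADPH-producing dehydrogenases of that pathway, had 31 and 14. Me1, the malic enzyme gene among the members, adds its promoter site to this group.

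Among the other groups the share was lower, from 18.2% to 50.0%, against 16.7% of all protein-coding genes. Of 11 elongation genes 2 had a TRBS within 30 kb (18.2%), near the share of all genes. Elovl5, an elongase of polyunsaturated fatty acids, had 57 fragments 6652 bp upstream while Hsd17b12 had 12. Of 8 desaturation genes only Scd2 and Scd4 had one (25.0%), both through the shared site of 86 fragments. Scd2 had another of 18 fragments 26633 bp upstream. Of 3 genes for citrate and acetate supply only Acss1, a mitochondrial acetyl-CoA synthetase, did, with 4 TRBS of at most 21 fragments. Mid1ip1, the paralog and partner of Thrsp, had 1 TRBS of 16 fragments with a DR4, 4089 bp downstream of its TSS, and Brca1, which binds phosphorylated acetyl-CoA carboxylase, had none. Acyl-CoA synthetases had 2 of 4, Acsl1 with 3 TRBS of at most 22 fragments and Acsl5 with 17 fragments and a DR4. Of 3 genes of mitochondrial synthesis, Mecr had 2 TRBS of at most 13 fragments.

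Of 14 genes listed as regulators of the pathway, 4 had a TRBS within 30 kb (28.6%), against 16.7% of all protein-coding genes. The 4 include Pnpla3 and Txnip, which are described here as targets and held more fragments than Srebf2 and Nr1h3. Pnpla3, a lipase gene induced by SREBP-1 and ChREBP, had 5 TRBS, the strongest with 58 fragments and a fold of 39.9 at 22905 bp upstream. Txnip, a ChREBP target, had 4, of at most 33 fragments. Srebf2, the cholesterol-directed relative of Srebf1, had 1 of 13 fragments 1285 bp downstream of its TSS, and Nr1h3 (LXRα) had 1 of 6. No TRBS within 30 kb was found for Mlx, the partner of ChREBP, nor for Scap, Insig1 and Insig2, which control SREBP processing.

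**Figure D4:**
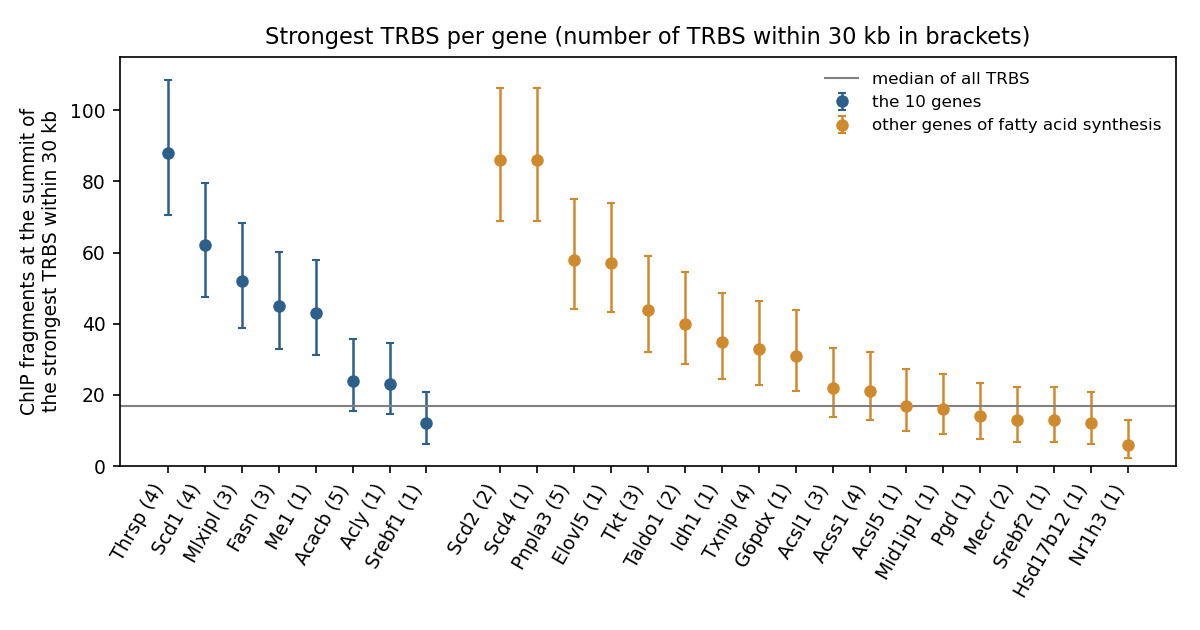
ChIP fragments at the strongest TRBS within 30 kb of each gene (y axis, with exact 95% Poisson intervals), for the 8 members (blue) and the 18 other genes (orange) with such a site, the number of TRBS in brackets. The members run from Thrsp at 88 down to Srebf1 at 12, and the line marks the median of all TRBS, 17.

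By the strongest site within 30 kb, the members were ordered Thrsp (88 fragments), Scd1 (62), Mlxipl (52), Fasn (45), Me1 (43), Acacb (24), Acly (23) and Srebf1 (12). Neighbours in this order had overlapping counting intervals, so the order of adjacent genes was not resolved, whereas the interval of Thrsp lay above those of Mlxipl, Fasn, Me1 and all genes below them. The interval of Scd1 lay above those of Acacb, Acly and Srebf1. Summed over their TRBS within 30 kb, Thrsp had 217 fragments, Scd1 152, Mlxipl 90, Fasn 81 and Acacb 79.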

How the data were processed

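Members, motifs and pathway lists were chosen with earlier results of these data known. The authors aligned paired-end reads to mm10 and called peaks with the input as control. Per the submitters' processing notes the tools include Bowtie2 2.3.2.2 and MACS2 2.1.1.20160309.6. The deposited score is 10 times the −log10 of the q-value, rounded down. The deposited fold is a ratio of ChIP to local background with a pseudocount of 1, and the deposited −log10 values of p and q come from the authors' Poisson test. The peak column gives the summit offset deposited with each interval, read from 0-based starts. These are the authors' values, and they served to describe and rank. All 5107 peaks were kept, 897 of them with a score under 60.

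The number of ChIP fragments at a summit was solved from fold and p-value (Python 3.11.15, scipy 1.17.1), within a tolerance of 0.0005 for 5090 peaks (99.7%) and with a single solution for all 39 named here. The search was checked on simulated data. The lowest background was 0.43 fragments, and the input was 3.29 times as deep as the ChIP. Genes came from the GENCODE annotation of GRCm38, sequences from the RefSeq GRCm38 assembly (pysam 0.24.0). Named were all 10 members with every TRBS within 30 kb or, where there was none, the nearest, and beyond 30 kb the TRBS with at least 30 fragments or a DR4, with the others in counts. Beyond that rule, single weaker sites are named where they complete a member's set. Alternatives were the score threshold, TSS choice, distance measure and limit, merging of neighbours, DR4 mismatches and window, and the measure of strength.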

Additional observations from a re-analysis of the deposited data

How the results depend on the processing

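In 61 recomputed values, 54 kept within 1.5 times the main count, or inside the interval of the DR4 share (7.31 to 38.5%) or of a count of the size of the median (15.4 to 35.7 fragments), and 7 moved. These limits were wide, so the tally is not a measure of robustness. A count of members cannot exceed 10, and the interval of the median includes 17 fragments, the median of all TRBS. A limit of 10 kb left 14 TRBS and 3 members with more than 1 (1.29% of all protein-coding genes), and a limit of 100 kb gave 39 TRBS. The DR4 share was 4.55% at 1 mismatch (7.23% of all TRBS) and 81.8% at 3 (72.5% of all TRBS and 35.2% of flanking windows), so at 3 mismatches the order against all TRBS turned. The median rose to 36 fragments with a score of at least 100, which by construction leaves out weak sites, and as deposited fold it was 14.4, another unit. Members with a TRBS numbered 7 with a score of at least 100 (11.3% of all protein-coding genes) or within 10 kb (8.09%), and 10 with any transcript start (19.6%), Acaca and Elovl6 being gained, or within 100 kb (38.3%). With the principal transcript's TSS, an alternative added after seeing the data, there were 9 members (16.6%) and 23 TRBS, Acaca being gained. No paired analysis was possible because the results come from no test between groups, and each group held 1 library. Depth limits single sites: at 13 fragments the counting interval runs from 6.92 to 22.2, so it is not told apart from a site of 7 or of 17.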
